A study of Mus musculus with 8 samples.

Results

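Transcripts of 9 complement genes, C1qa, C1qb, C1qc, C1s1, C3, C4b, Cfb, Serping1 and C3ar1, were followed through the cells of the mouse colonic lamina propria, the connective tissue layer beneath the gut epithelium. The 9 genes were taken by name from the 31053 genes of the droplet single-cell RNA tables, with earlier results of these data known. The mice were C57BL/6 animals aged 10 to 12 weeks, either wildtype or mutant in RORgt, a transcription factor of T helper 17 and innate lymphoid cells. The sample titles call the mutant S203AKI and the series' design text calls it RORgtS182A. Untreated wildtype and untreated mutant mice drank plain water for 10 days. The wildtype DSS and mutant DSS groups drank 2% dextran sulfate sodium (DSS), a polymer that injures the colonic epithelium, for 7 days and plain water for 3 days. All 4 groups were collected on day 10 and hold 2 libraries each, which the series' design text gives as independent biological replicates; how many mice went into a library is not given in the sources used here.

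Complement is a cascade of plasma and tissue proteins that marks particles and cells for removal. C1q is a protein built of the A, B and C chains encoded by C1qa, C1qb and C1qc. In the classical pathway it binds a target and activates the proteases C1r and C1s, of which C1s cleaves C4 and C2. Serping1 encodes C1 inhibitor, the serpin that inactivates C1r and C1s. The resulting enzyme cleaves C3, the central protein of the cascade, and in the alternative pathway factor B, encoded by Cfb, pairs with deposited C3 fragments to cleave more C3. C3ar1 encodes the receptor for the released fragment C3a. The liver makes most complement of the plasma, while tissue macrophages are a main source of C1q and stromal cells are a known local source of C3.

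The 8 libraries held 34497509 to 46960005 unique molecular identifiers (UMIs, 1 per captured transcript molecule), and 96721 of 100673 barcodes were used, 10340 to 15370 per library with median depths of 1886 to 3019 UMIs. Although the cells had passed through a CD4+ T cell isolation kit, 10150 barcodes formed fibroblast-like clusters and 8399 a macrophage-like cluster, beside 59302 T cell-like barcodes; the names rest on marker lists that hold no complement gene. All 11 fibroblast markers and all 11 macrophage markers carried UMIs in their own classes. The complement genes were also left out of the genes used for clustering. Of 99487 distinct barcode sequences, 1176 occurred in more than 1 library. Levels are given in CPM, the UMIs of a gene relative to all UMIs summed over the barcodes of a class in a library, so that the library is the replicate.

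C1qa, C1qb and C1qc lie side by side on the minus strand of chromosome 4 within 18675 bases (chr4:136880129-136898803, mm10), and C4b (chr17:34728380-34743882), Cfb (chr17:34856374-34862518) and C3 (chr17:57203970-57228136) lie on chromosome 17. C1s1 is at chr6:124530345-124542359, C3ar1 at chr6:122847138-122856161 and Serping1 at chr2:84765387-84775444; all 9 are protein-coding genes on the minus strand. RefSeq promoter sequences (GRCm38.p6) were at hand for 5 of the 9: C1qb, C1qc, C1s1, C3 and C3ar1. The 250 bases before the start are shown for C3 (chr17:57228137-57228386, minus strand) and C1qb (chr4:136886201-136886450, minus strand). Among the stromal genes, C3 had the highest mean fibroblast level over all 8 libraries, untreated and DSS together. C1qb was the C1q chain that moved the farthest after DSS. Neither window overlaps an annotated exon. Capitals mark matches on either strand to TTNNGNAA, a C/EBP-type pattern, in C3, and to GAGGAA, a core of the ETS factor PU.1, in C1qb.
C3: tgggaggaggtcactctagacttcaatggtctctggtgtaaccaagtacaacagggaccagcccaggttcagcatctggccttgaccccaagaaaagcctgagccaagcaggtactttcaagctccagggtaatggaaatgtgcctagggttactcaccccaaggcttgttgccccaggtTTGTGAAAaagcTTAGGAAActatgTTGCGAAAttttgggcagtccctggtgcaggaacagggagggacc
C1qb: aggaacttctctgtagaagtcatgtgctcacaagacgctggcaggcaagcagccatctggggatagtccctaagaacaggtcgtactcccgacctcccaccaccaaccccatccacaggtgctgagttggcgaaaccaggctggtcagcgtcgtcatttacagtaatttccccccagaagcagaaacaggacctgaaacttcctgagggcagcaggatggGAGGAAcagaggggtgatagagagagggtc
The C3 window holds 3 C/EBP-type matches, which begin 70, 58 and 45 bases before the start. At least 1 such match is present in 36.8% of 32851 promoter windows of this length, so that its presence is common. The C1qb window holds 1 GAGGAA match, 30 bases before the start, and so do 23.3% of all windows; this pattern was added after the sequences had been read. Matches to the gamma-activated site (TTCNNNGAA, in 7.02% of all windows), the interferon-stimulated response element (2.98%), the NF-kB site (5.74%) and the TATA box (TATAAA, 12.4%) were not found in these letters in either window. A match is a description of the sequence and not a measured binding site.

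Over all 8 libraries, 5 of the genes had most of their UMIs in fibroblast-like and 4 in macrophage-like barcodes. Fibroblast-like barcodes held 88.7% of all C1s1 UMIs, 87.2% of C3, 90.8% of C4b, 86.1% of Serping1 and 75.0% of Cfb. For Cfb this share differed between conditions: in untreated libraries fibroblast-like barcodes held 52.7%, macrophage-like 29.8% and monocyte-like 11.4% of 533 UMIs, and in DSS libraries fibroblast-like barcodes held 84.1% of 1317. Macrophage-like barcodes held 79.9% of C1qa UMIs, 76.5% of C1qb, 79.4% of C1qc and 78.5% of C3ar1, and monocyte-like barcodes a further 7.99%, 10.9%, 8.06% and 10.4%. These shares depend on how many barcodes of each class were captured.

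**Figure D1:**
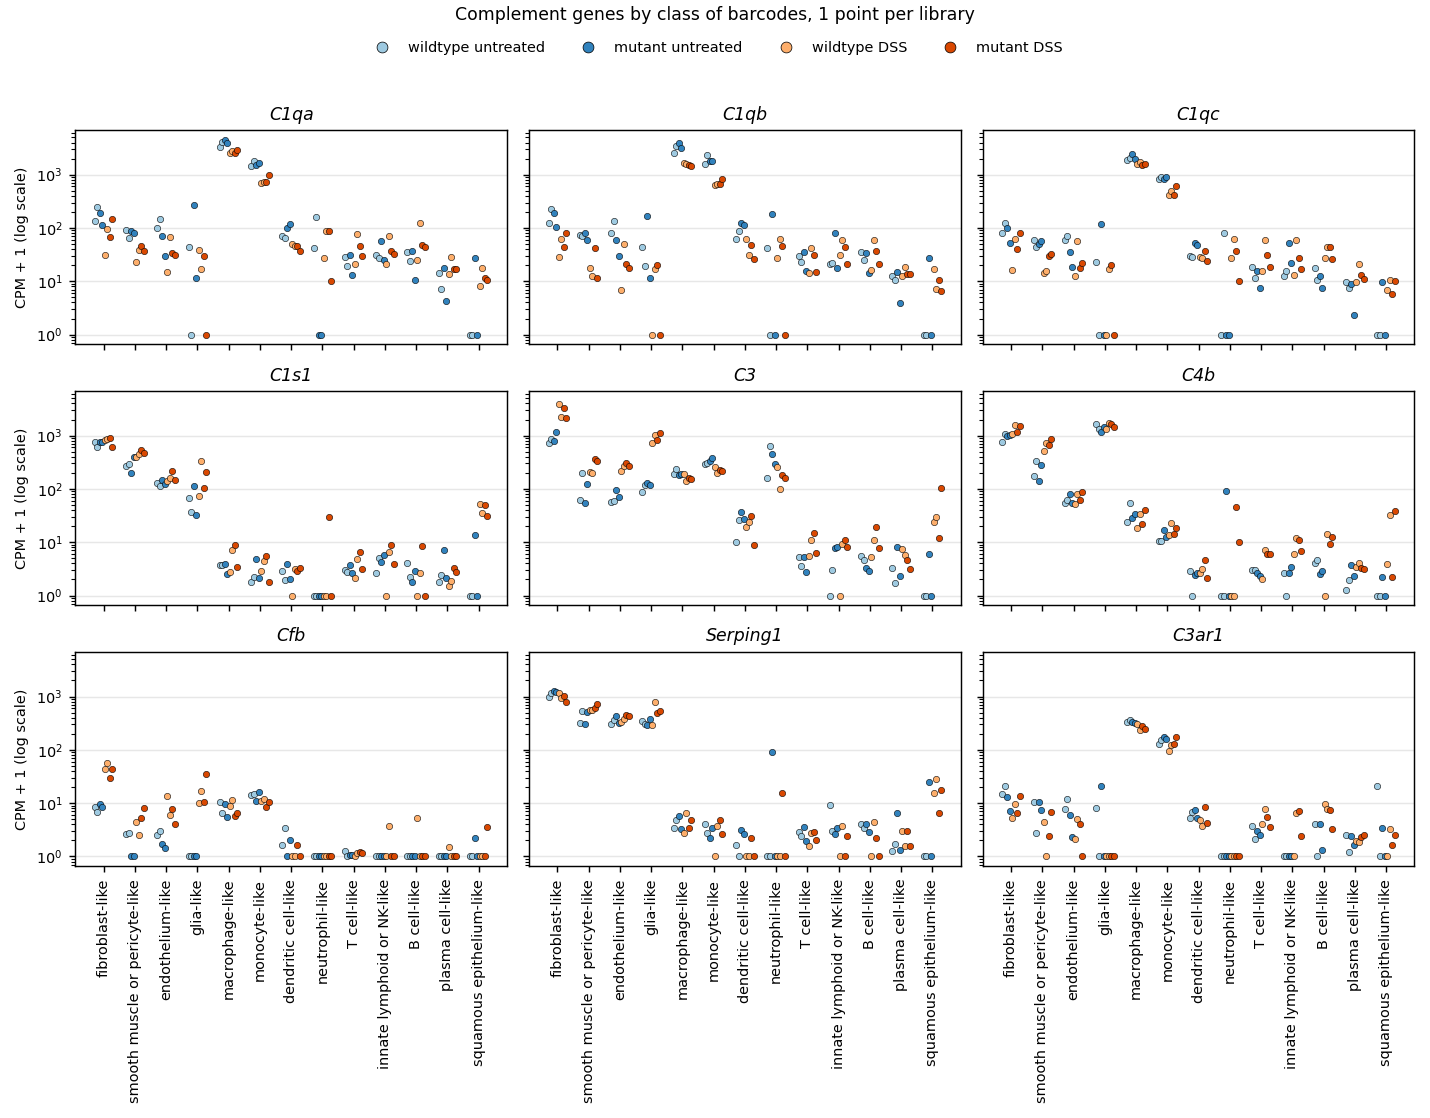
Level of each of the 9 genes (CPM + 1, log axis) in 13 classes of barcodes, with 1 point per library colored by group. C1qa, C1qb, C1qc and C3ar1 are highest in macrophage-like and monocyte-like barcodes; C1s1, C3 and Serping1 have their highest mean in fibroblast-like and C4b in glia-like barcodes, and Cfb is highest in fibroblast-like barcodes in the DSS libraries, not in the untreated ones.

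Relative to the UMIs of the class, C1qa reached 3326 ± 729 CPM (SD, n = 8 libraries) in macrophage-like barcodes and 1202 ± 463 in monocyte-like barcodes, with no overlap between the 2 ranges. C1qb was at 2424 ± 991 CPM in macrophage-like and 1292 ± 666 in monocyte-like barcodes, and these ranges overlapped. C1qc was at 1851 ± 301 and 675 ± 215 CPM in the same order, without overlap. C3ar1 stood at 301 ± 45.2 CPM in macrophage-like barcodes and 141 ± 27.7 in monocyte-like barcodes, again without overlap. In every other class the means were far lower, with C1qa at 128 ± 68.1 CPM in fibroblast-like and 66.0 ± 29.0 in dendritic cell-like barcodes, whose ranges overlapped. T cells do not make C1q, and T cell-like barcodes carried 12.1 to 29.98 CPM of C1qa in untreated and 20.1 to 76.3 in DSS libraries, which sets a background for the classes with low values.

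The stromal genes were spread over more than 1 class. C1s1 was highest in fibroblast-like barcodes (761 ± 108 CPM, n = 8), did not overlap with the next class, smooth muscle- or pericyte-like barcodes (376 ± 113), and was lower again in endothelium-like barcodes (147 ± 32.7). Serping1 followed the same order, with 1058 ± 168, 515 ± 145 and 376 ± 56.0 CPM in those classes, and glia-like barcodes (428 ± 168) between the last 2. C4b was highest in glia-like barcodes (1468 ± 181 CPM), which overlapped with fibroblast-like barcodes (1141 ± 278). C3 was at 1901 ± 1228 CPM in fibroblast-like barcodes, the largest SD over libraries of the 9 genes in that class. Cfb was at 24.9 ± 20.01 there and varied more than C3 relative to its mean. Both ranges overlapped with the next class, glia-like barcodes for C3 (518 ± 450) and monocyte-like barcodes for Cfb (11.3 ± 2.57). In untreated libraries Cfb was lower in fibroblast-like (5.81 to 8.79 CPM) than in monocyte-like barcodes (10.03 to 15.3). Macrophage-like and monocyte-like barcodes also carried C3, at 180 ± 29.95 and 277 ± 63.8 CPM, against 1.81 to 13.9 in T cell-like barcodes. Mouse C4a, a near copy of C4b, has no row in the tables, and C1s2 is a near copy of C1s1, so that the counts of C4b and C1s1 are uncertain to the extent that reads were shared.

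Over the 25 clusters, the 3 C1q chains followed each other with Pearson r between 0.992 and 0.996 on log2(CPM + 1), and C3ar1 followed them with r of 0.92 to 0.93. C1s1 and Serping1 (r = 0.97), Serping1 and C4b (0.94) and C1s1 and C4b (0.92) were also close. C3 followed C4b and Cfb with r of 0.90 each and Serping1 with 0.84, and C4b followed Cfb with 0.86. C1qa and C1s1 had r = 0.09. Among 10582 other genes, those most like C1qa were Adgre1 (r = 0.99), which encodes the macrophage surface protein F4/80, Ms4a7 (0.98) and Trem2 (0.97), a lipid receptor of macrophages. The same 3 genes led for C1qb and C1qc, and Ms4a7, Pf4 and Tfec led for C3ar1 (0.94 to 0.95). C1s1 was most like Pcolce, Col3a1 and Bgn (each 0.99), genes of the collagen matrix, and Serping1 most like Fstl1, Loxl2 and Aebp1 (each 0.99). C4b was most like Sfrp1, Fam198b and Olfml3 (0.97), C3 most like Cd302, Gsn and Ccl2 (0.94 to 0.95) and Cfb most like Coq8b, Ccl7 and Ccl2 (0.91 to 0.93), of which Ccl2 and Ccl7 encode monocyte attractants. The clusters share libraries and depth, so these values describe likeness and carry no test.

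In fibroblast-like barcodes, C3 and Cfb were higher after DSS in both genotypes. C3 stood at 719.8 and 859.7 CPM in the wildtype untreated libraries and at 797 and 1162 in the mutant untreated libraries. After DSS it stood at 3896 and 2252 CPM in wildtype and at 3361.5 and 2159.5 in mutant libraries. Every DSS library was above every untreated library, and the lower DSS library of each genotype was still well above the highest untreated one. How many of all genes separate the libraries in this way is not given here, for this class or for those below. Lack of overlap is therefore a description of single genes and not a trait particular to them. Averaged over the genotypes, C3 rose by a log2 fold change of 1.78 ± 0.20 (SE; adjusted p = 0.0009), with 2.01 ± 0.28 in wildtype (adjusted p = 0.00762) and 1.56 ± 0.28 in mutant mice (adjusted p = 0.0157).

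Cfb was a low-abundance transcript in untreated fibroblast-like barcodes, with 7.49 and 5.81 CPM in wildtype and 8.79 and 7.34 in mutant libraries. It reached 43.1 and 55.4 CPM in the wildtype DSS libraries and 29.1 and 42.0 in the mutant DSS libraries. The 2 sets of libraries did not overlap, and the lowest DSS value was more than 3-fold above the highest untreated one. The log2 fold change was 2.61 ± 0.19 over both genotypes (adjusted p = 0.000143), 3.01 ± 0.28 in wildtype (adjusted p = 0.00144) and 2.22 ± 0.27 in mutant mice (adjusted p = 0.0051).

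The share of barcodes with a transcript moved in the same direction. With each barcode thinned to 1000 UMIs, C3 was seen in 29.96% to 42.2% of fibroblast-like barcodes of untreated libraries and in 64.0% to 74.0% after DSS; unthinned, the shares were 45.5% to 63.2% and 88.1% to 92.0%. In T cell-like barcodes, with a median depth of 1950 UMIs against 5238.5 in fibroblast-like ones, the thinned shares were 0.233% to 0.497% and 0.499% to 1.43%. Cfb was seen in 0.623% to 1.01% and 2.05% to 4.41% of thinned fibroblast-like barcodes, and unthinned in 2.99% to 4.47% and 13.5% to 25.7%. Thinning left out 102 fibroblast-like barcodes of untreated and 68 of DSS libraries.

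**Figure D2:**
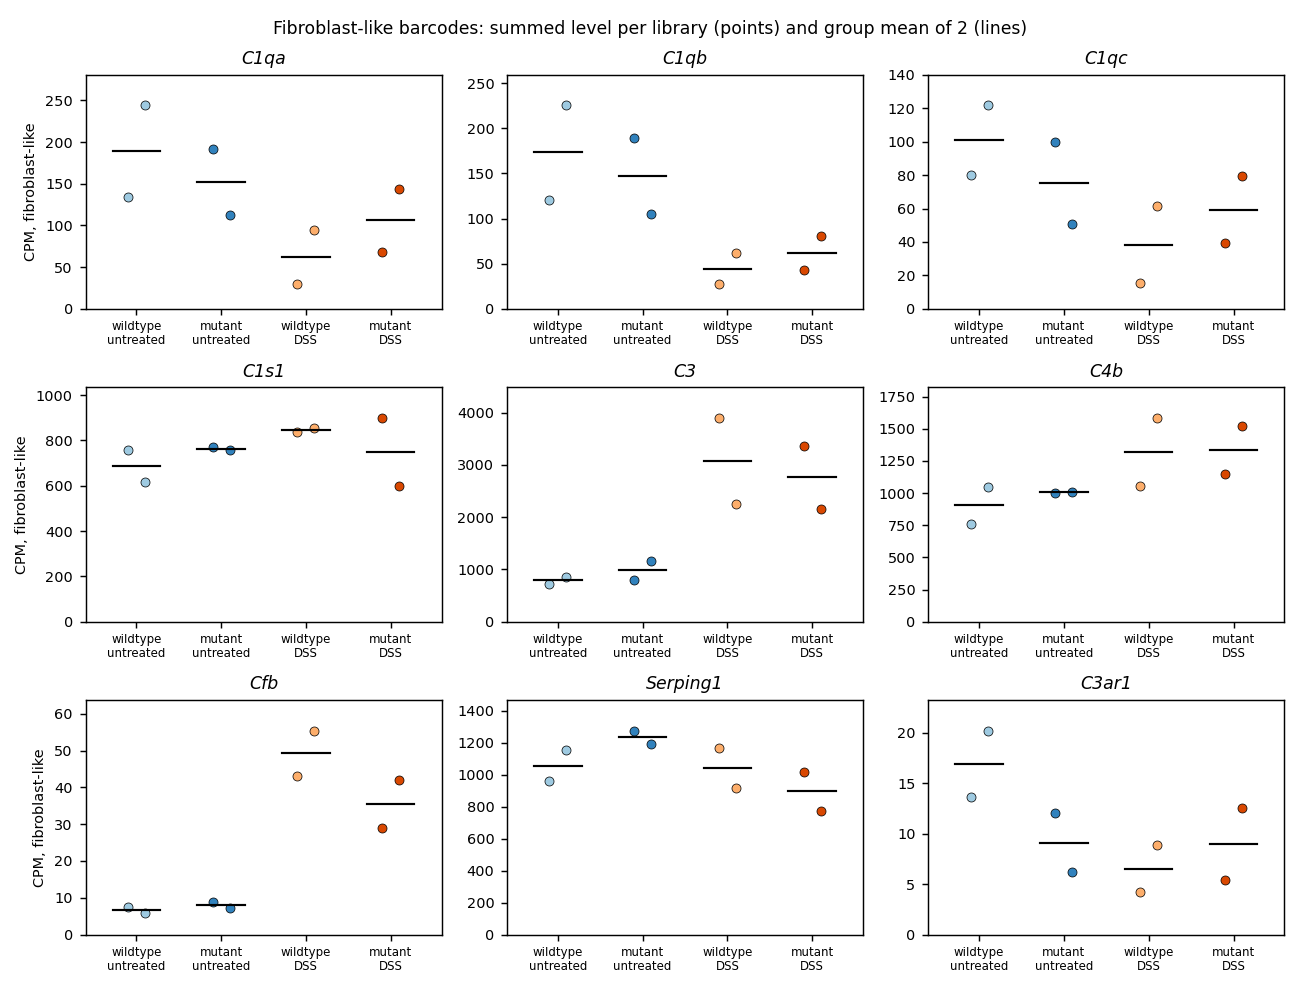
CPM of the 9 genes summed over fibroblast-like barcodes, with 1 point per library, the 4 groups on the horizontal axis and lines at the mean of 2 libraries; each vertical axis starts at 0. For C3, Cfb, C4b and C1qb no DSS library overlaps an untreated one, and for C4b the gap is narrow (1048 against 1052 CPM). The share of all genes without such overlap is not given here, so this count has no background beside it.

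The other 3 stromal genes were not called in the class as a whole. C4b, the source of the C4 that C1s cleaves, was at 760.3 and 1048 CPM in wildtype untreated, 999 and 1011 in mutant untreated, 1052 and 1585 in wildtype DSS and 1149 and 1525 in mutant DSS libraries. Its log2 fold change of 0.56 ± 0.19 over both genotypes missed the threshold of 0.05 in edgeR (adjusted p = 0.0658), although the untreated and DSS libraries did not overlap. C4b was called by DESeq2 (adjusted p = 0.0235), without the filter on low counts (0.000248) and without wildtype DSS replicate 1 (0.0279) or mutant DSS replicate 1 (0.0282). The fit without the filter called more members over both genotypes than the reported fit, and its share of all genes called is not given here. C1s1 lay between 616 and 769 CPM in untreated and between 599 and 899 in DSS libraries (0.20 ± 0.13, adjusted p = 0.296). Serping1, which restrains C1s, lay between 961 and 1275 CPM in untreated and between 774 and 1169 in DSS libraries (−0.18 ± 0.11, adjusted p = 0.293). For both of these genes the untreated and DSS libraries overlapped.

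All 9 genes passed the filter on low counts in fibroblast-like barcodes, and 3 of 9 were called over both genotypes: 2 higher and 1, C1qb, lower. Over all 13596 genes tested, 20.3% were called in this comparison, 10.7% higher and 9.57% lower, so DSS was followed by a broad change in this class and the count of 3 stands close to the background. In wildtype mice 2 of 9 were called against 3.22% of all genes, and in mutant mice 2 of 9 against 7.82%. The median log2 fold change was −0.18 over the 9 genes and 0.01 over all genes. The calls of C3 and Cfb over both genotypes held under all 16 alternative settings, with adjusted p of up to 0.0123 and 0.00387. The calls within 1 genotype rested on few libraries: the adjusted p of C3 was 0.12 and 0.0971 without wildtype untreated replicate 1 or 2 and 0.149 and 0.0624 without mutant untreated replicate 1 or 2, and that of Cfb was 0.0685 and 0.0528 without mutant untreated replicate 1 or 2.

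Fibroblast-like barcodes came in 4 clusters whose shares differed between groups, so the same comparison was made inside each; this was added after the clusters had been seen. Cluster 9, led by Dcn and Adamdec1, held 49.6% to 56.7% of fibroblast-like barcodes in untreated and 3.15% to 22.6% in DSS libraries. Cluster 10, led by Igfbp5 and Serpina3n, held 4.33% to 9.48% and 24.2% to 69.8%. Cluster 11 carried the telocyte-like markers most strongly and cluster 13 the adventitial markers. Cluster 11 held 21.4% to 30.7% of fibroblast-like barcodes in untreated and 3.47% to 15.4% in DSS libraries. Cluster 13 held 12.9% to 17.4% and 17.1% to 44.6%, ranges that overlapped.

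C3 was concentrated in cluster 13. There it lay between 2437 and 3573 CPM in untreated and between 4358 and 7152 in DSS libraries, while cluster 11 had 46.3 to 95.1 and 89.2 to 333. Clusters 9 and 10 lay between them, at 652 to 1160 and 620.7 to 849.8 CPM in untreated libraries. After DSS they held 1283 to 2084 and 1401 to 2519.5 CPM. The log2 fold change of C3 was 1.30 ± 0.18 in cluster 10 (adjusted p = 0.000442), 1.48 ± 0.25 in cluster 11 (adjusted p = 0.0132), 0.99 ± 0.16 in cluster 13 (adjusted p = 0.000855) and 0.88 ± 0.21 in cluster 9, where it was not called (adjusted p = 0.0658). Each of these values was smaller than the 1.78 of the whole class. The part of the different cluster shares in the value of the whole class was not tested.

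Cfb rose by 2.03 ± 0.26 in cluster 10 (adjusted p = 0.000249) and by 2.24 ± 0.28 in cluster 13 (adjusted p = 9.96e-05), with untreated ranges of 5.203 to 18.8 and 4.70 to 17.1 CPM and DSS ranges of 32.9 to 64.9 and 37.8 to 71.1. In cluster 9 the ranges overlapped (8.59 to 9.43 and 4.10 to 17.4 CPM), the estimate was 0.32 ± 0.41 (adjusted p = 0.768), and in cluster 11 Cfb did not pass the filter. C4b rose in cluster 10 (0.87 ± 0.15, adjusted p = 0.00216) and cluster 13 (0.70 ± 0.16, adjusted p = 0.00815) and stood at −0.15 ± 0.18 in cluster 9 (adjusted p = 0.741) and 0.47 ± 0.19 in cluster 11 (adjusted p = 0.296). Serping1 fell in cluster 13 by 0.43 on the log2 scale (SE 0.12, adjusted p = 0.0286), from 1688 to 1920 CPM in untreated to 1101 to 1515 in DSS libraries. C1s1 rose in cluster 10 by 0.57 ± 0.15 (adjusted p = 0.0248). The macrophage markers in cluster 10 summed to 1827 to 2384 CPM in untreated and 489 to 877 in DSS libraries, and their part in the higher C1s1, C4b, C3 and Cfb of that cluster was not tested. C1qa, C1qb, C1qc and C3ar1 fell in cluster 10, by 3.32, 3.87, 3.14 and 2.96 on the log2 scale (adjusted p = 5.17e-05, 1.85e-05, 0.000195 and 9.17e-05). Cluster 10 thus had 8 of its 9 tested members called, 4 higher and 4 lower, against 16.8% of all genes tested there, cluster 13 had 5 of 8 against 17.9%, cluster 11 had 2 of 8 against 1.36% and cluster 9 had 0 of 8 against 1.06%. In cluster 9, edgeR gave 2 members an unadjusted p under 0.05, against 14.6% of all genes, and no other tool was run within clusters. Single libraries held as few as 30 barcodes of cluster 9, 33 of cluster 11 and 48 of cluster 10.

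**Figure D3:**
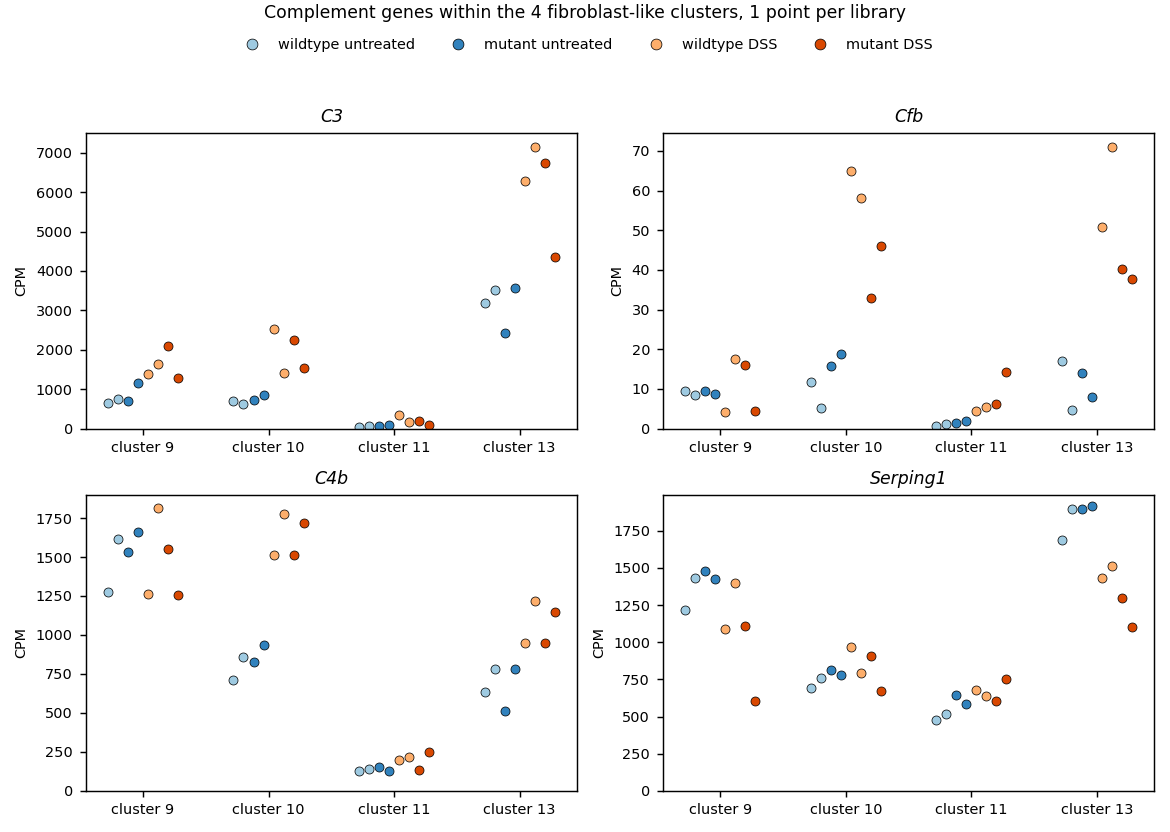
CPM of C3, Cfb, C4b and Serping1 within each of the 4 fibroblast-like clusters, with 1 point per library colored by group and vertical axes from 0. C3 is highest in cluster 13 in every library, where the DSS libraries (4358 to 7152 CPM) lie above the untreated ones (2437 to 3573), and Serping1 in that cluster is lower in the DSS libraries.

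C1qb in fibroblast-like barcodes was at 121 and 226 CPM in wildtype untreated, 189 and 105 in mutant untreated, 27.3 and 61.7 in wildtype DSS and 43.2 and 80.7 in mutant DSS libraries. It fell by 1.47 on the log2 scale over both genotypes (SE 0.35, adjusted p = 0.0212). The share of fibroblast-like barcodes with a C1qb transcript did not follow this: thinned to 1000 UMIs it was 2.93% to 7.47% in untreated and 2.98% to 5.93% in DSS libraries, and unthinned 7.04% to 14.4% and 10.8% to 17.3%. C1qa lay between 113 and 244 CPM in untreated and between 29.9 and 144 in DSS libraries and was not called (−0.93 ± 0.39, adjusted p = 0.124), and neither C1qc (−0.70 ± 0.40, adjusted p = 0.242) nor C3ar1 (−0.50 ± 0.34, adjusted p = 0.315) was called. These macrophage genes lay mostly in cluster 10 of the untreated libraries, at 746 to 1515 CPM of C1qa, against 16.1 to 27.8 in cluster 9. The 11 macrophage markers summed to 208 to 254 CPM in untreated cluster 9 barcodes, far below their sums in cluster 10. Cluster 10 had a median of 7497.5 UMIs per barcode, and 30.6% of its barcodes were among the 8% with the highest doublet scores. Over the whole class, the summed macrophage markers were 407 to 589 CPM in untreated and 338 to 697 in DSS libraries, with 6 of 11 higher and 5 lower after DSS.

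Without the barcodes of the highest doublet scores, the change of C1qb in fibroblast-like barcodes was −0.03 (adjusted p = 0.964), and without barcodes holding any UMI of a macrophage marker it was −0.52 (adjusted p = 0.406). The other estimates changed sign without the highest doublet scores, to 0.67 for C1qa, 0.99 for C1qc and 1.16 for C3ar1 (adjusted p = 0.304, 0.124 and 0.0809). Over its 16 alternatives the adjusted p ran from 4.51e-25 to 0.964, and the call was also lost without wildtype untreated replicate 2 (0.092) or mutant untreated replicate 1 (0.079). In the fibroblast-like barcodes without a macrophage marker, C1qa was at 6.11 to 18.9 CPM in untreated and 4.69 to 22.4 in DSS libraries. All T cell-like barcodes, with or without such a marker, had 12.1 to 76.3 CPM over all libraries. Adgre1 and Ms4a7 are among the markers used for this removal and among the genes most like C1qa. C3 in the fibroblast-like barcodes without a macrophage marker was at 936 to 1516 CPM in untreated and 3074 to 4484 in DSS libraries, and Cfb at 4.81 to 10.1 and 25.2 to 65.4. In the fit on these barcodes, whose macrophage markers were at 0, the log2 fold changes were 1.84 ± 0.16 for C3 (adjusted p = 3.51e-05) and 2.73 ± 0.26 for Cfb (adjusted p = 7.35e-05). These barcodes were 554 to 1028 of 1108 to 2110 fibroblast-like barcodes per untreated library and 93 to 321 of 240 to 1194 per DSS library, and 17.6% of cluster 10 but 59.8% of cluster 13, so that their mix of clusters was not that of the whole class.

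In macrophage-like barcodes, all 3 C1q chains and C3ar1 were lower after DSS. C1qa stood at 3336 and 4121 CPM in wildtype untreated, 4439 and 3845.5 in mutant untreated, 2572 and 2795 in wildtype DSS and 2566.5 and 2933 in mutant DSS libraries. C1qb stood at 2598 and 3521 CPM in wildtype untreated, 3847 and 3194 in mutant untreated, 1670.4 and 1607 in wildtype DSS and 1519 and 1439 in mutant DSS libraries. C1qc stood at 1897.5 and 2084.5 CPM in wildtype untreated, 2403 and 1989 in mutant untreated, 1583 and 1707 in wildtype DSS and 1536 and 1604 in mutant DSS libraries. For each chain every DSS library was below every untreated library, and C1qb moved the farthest.

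Over both genotypes C1qb fell by 1.26 on the log2 scale (SE 0.12, adjusted p = 0.0003), C1qa by 0.72 (SE 0.11, adjusted p = 0.00209) and C1qc by 0.57 (SE 0.10, adjusted p = 0.00396). C3ar1, at 336 and 359 CPM in wildtype untreated, 328 and 321 in mutant untreated, 306 and 229.7 in wildtype DSS and 280.5 and 246 in mutant DSS libraries, fell by 0.53 (SE 0.13, adjusted p = 0.0123). C3 fell by 0.50 (SE 0.13, adjusted p = 0.0205), from 185 to 236 CPM to 142 to 191, ranges that overlapped. The remaining members were at low levels and were not called: C4b at 17.8 to 52.6 CPM over the 8 libraries (−0.47 ± 0.28, adjusted p = 0.25), Cfb at 4.41 to 10.3 (−0.26 ± 0.27, adjusted p = 0.508), and Serping1 and C1s1 below 8 CPM in each library (adjusted p = 0.766 and 0.335). The difference between these values and those of C3 and Cfb in fibroblast-like barcodes was not itself tested.

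The share of macrophage-like barcodes with a C1qb transcript, each thinned to 1000 UMIs, was 85.4% to 92.97% in untreated and 67.7% to 71.7% in DSS libraries. The shares were 92.3% to 95.3% and 84.7% to 91.4% for C1qa, and 81.6% to 84.8% and 73.3% to 76.5% for C1qc. For C3ar1 they were 25.5% to 30.4% and 20.5% to 27.3%, and for C3 13.8% to 17.2% and 11.4% to 14.4%, ranges that overlapped. Unthinned, C1qb was seen in 94.2% to 97.8% and 80.7% to 87.2%, and thinned T cell-like barcodes had C1qb in 1.45% to 3.48% and 1.60% to 4.76%. Thinning left out 165 macrophage-like barcodes of untreated and 454 of DSS libraries.

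**Figure D4:**
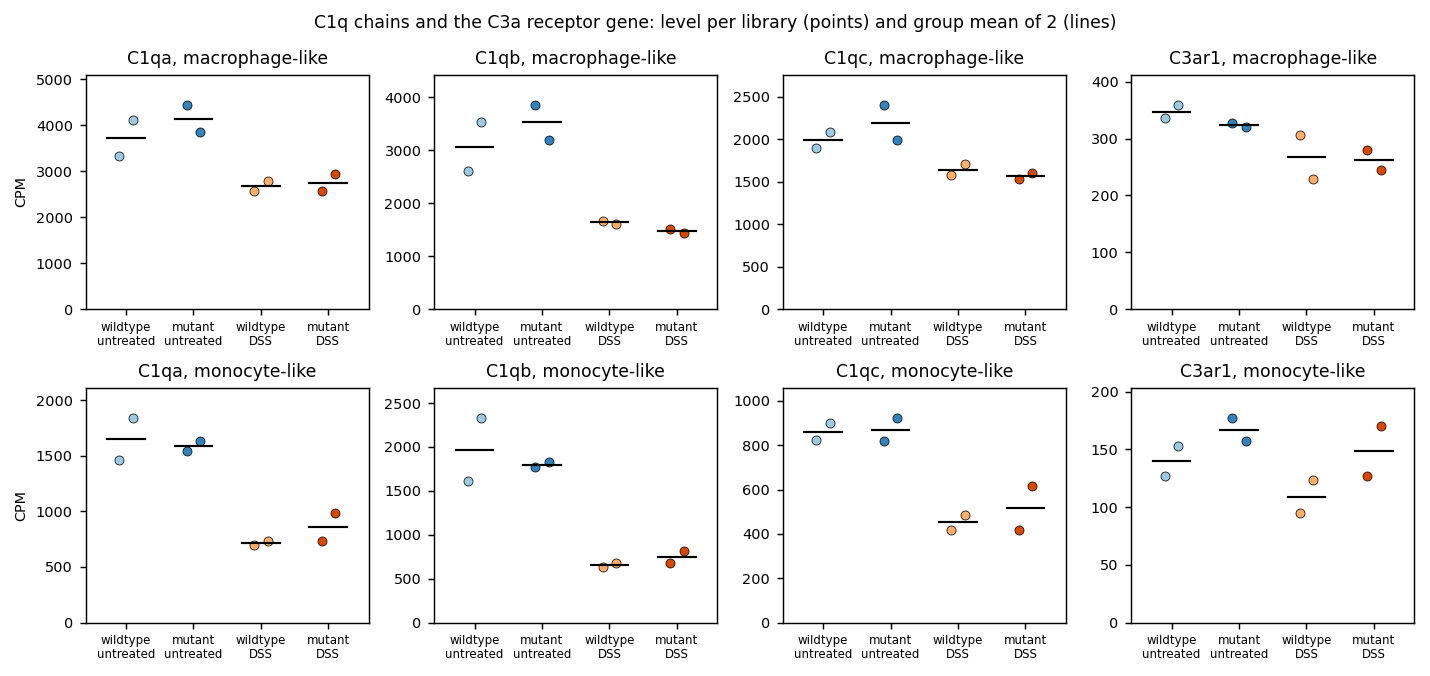
CPM of C1qa, C1qb, C1qc and C3ar1 in macrophage-like barcodes (upper row) and monocyte-like barcodes (lower row), with 1 point per library, lines at the mean of 2 libraries and vertical axes from 0. The C1q chains are lower in all 4 DSS libraries than in all 4 untreated libraries in both classes; C3ar1 in monocyte-like barcodes overlaps.

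Of the 9 genes, all tested, 5 were called in macrophage-like barcodes over both genotypes, all lower, against 24.8% of all 10340 genes called in either direction and 12.9% called lower. In mutant mice alone 3 of 9 were called (14.5% of all genes), C1qb at −1.45 ± 0.18 (adjusted p = 0.00271), C1qa at −0.80 ± 0.16 (adjusted p = 0.0112) and C1qc at −0.69 ± 0.15 (adjusted p = 0.0147). In wildtype mice alone C1qb was called (−1.07 ± 0.18, adjusted p = 0.0306), 1 of 9 against 0.503% of all genes, while C1qa was at −0.65 ± 0.16 (adjusted p = 0.0813) and C1qc at −0.45 ± 0.15 (adjusted p = 0.147). The 3 C1q calls over both genotypes held under all 16 alternatives, with adjusted p of up to 0.0196 for C1qa, 0.00398 for C1qb and 0.0294 for C1qc. The call of C3ar1 was lost without wildtype untreated replicate 2 (0.0637), without wildtype DSS replicate 2 (0.0688) and without the highest doublet scores (0.05). That of C3 was lost under 6 of 16 alternatives, among them without wildtype untreated replicate 2 (0.105), mutant untreated replicate 1 (0.0525) or 2 (0.0558), wildtype DSS replicate 2 (0.101) or mutant DSS replicate 2 (0.056). In mutant mice the adjusted p of C1qa was 0.102 and of C1qc 0.124 without mutant untreated replicate 1, and of C1qc 0.0544 without mutant DSS replicate 2; in wildtype mice the call of C1qb was lost without any 1 of wildtype untreated replicate 2 (0.386), mutant untreated replicate 1 (0.0551) or 2 (0.0575) and wildtype DSS replicate 1 (0.12) or 2 (0.252).

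Other markers of the macrophage-like class shifted at the same time. The 11 macrophage markers summed to 6291 to 6815 CPM in untreated and 5712 to 6924 in DSS libraries, with 5 of 11 higher and 6 lower. Ms4a7 had a mean of 967 CPM in untreated and 515 in DSS libraries, Adgre1 of 455 and 305 and Cx3cr1 of 237.5 and 124, whereas Mrc1 had 501 and 626 and Cd14 1137 and 1622. The 6 monocyte markers summed to 106 to 116 CPM and 109.5 to 143, with Chil3 at 0 in all 4 untreated libraries, and T cell markers to 289 to 392 and 446 to 673. The part of these shifts in the lower C1q was not tested. Macrophage-like barcodes on and off the authors' deposited list of 27420 cells gave alike values, with C1qb at 2557 to 3785.5 and 2626.5 to 3922 CPM in untreated and 1423 to 1615 and 1427 to 1732 in DSS libraries.

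In monocyte-like barcodes the 3 C1q chains and C3 were also lower after DSS; the difference between this class and macrophage-like barcodes was not tested. C1qb was at 1611 and 2325 CPM in wildtype untreated, 1768 and 1830.5 in mutant untreated, 631 and 677 in wildtype DSS and 681 and 811.5 in mutant DSS libraries, and fell by 1.56 on the log2 scale (SE 0.14, adjusted p = 1.23e-05). C1qa went from between 1459 and 1836 CPM to between 697 and 986 (−1.17 ± 0.13, adjusted p = 8.95e-05), and C1qc from between 818 and 921 to between 416 and 618 (−0.96 ± 0.14, adjusted p = 0.00058). C3 went from between 289 and 381 CPM to between 198 and 260.2 (−0.67 ± 0.13, adjusted p = 0.00352). These 4 were called of 7 members tested, against 17.4% of all genes, and under each of the 14 alternatives in which the class was found. C3ar1, whose libraries overlapped, was not called (−0.39 ± 0.14, adjusted p = 0.0729). The monocyte markers in this class summed to 1618 to 2127 CPM in untreated and 2337 to 4183 in DSS libraries, with Chil3 at a mean of 39.2 and 1176, and their part in the lower C1q was not tested.

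Because C1qb had moved more than C1qa, the ratio of their UMIs, which does not depend on the total of a class, was computed for 4 classes or clusters; this was chosen after the levels had been seen. In macrophage-like barcodes it was 0.833 ± 0.0388 (SD, n = 4) in untreated and 0.577 ± 0.0657 in DSS libraries, lower in 4 of 4 libraries than in any untreated library. Monocyte-like barcodes had 1.16 ± 0.0728 and 0.895 ± 0.0487. T cell-like barcodes, where C1q is background, had 1.152 ± 0.0892 and 0.592 ± 0.0964, and fibroblast-like cluster 10 had 0.911 ± 0.0515 and 0.640 ± 0.0752. In each of the 4 the untreated and DSS libraries did not overlap, and since the ratio was chosen for this difference no test is given. The ratio of C1qc to C1qa was 0.533 ± 0.0280 and 0.593 ± 0.0316 in macrophage-like, 0.538 ± 0.0357 and 0.614 ± 0.0394 in monocyte-like, 0.5635 ± 0.0665 and 0.686 ± 0.0622 in T cell-like and 0.518 ± 0.0566 and 0.529 ± 0.160 in cluster 10 barcodes of untreated and DSS libraries.

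In the other stromal classes tested, C3 and Cfb rose in endothelium-like barcodes and C4b in smooth muscle- or pericyte-like barcodes. In endothelium-like barcodes C3 was at 56.5 and 58.5 CPM in wildtype untreated, 94.6 and 69.6 in mutant untreated, 211 and 267 in wildtype DSS and 306 and 267 in mutant DSS libraries, and rose by 1.92 ± 0.15 (adjusted p = 9.1e-05; up to 0.00252 over 15 alternatives). Cfb there was at 0.432 to 2.02 CPM in untreated and 3.14 to 12.8 in DSS libraries, from 46 UMIs in all (2.58 ± 0.51, adjusted p = 0.018, called under 8 of 15 alternatives). Leaving out any 1 of wildtype untreated replicates 1 and 2, mutant untreated replicates 1 and 2, wildtype DSS replicate 1 and mutant DSS replicate 1 brought its adjusted p to between 0.0551 and 0.099. C1qb was also called lower in endothelium-like barcodes (−1.60 ± 0.39, adjusted p = 0.0414), under 7 of 15 alternatives, with the adjusted p at 0.307 without the highest doublet scores and between 0.0537 and 0.153 without any 1 of wildtype untreated replicate 2, mutant untreated replicate 1, wildtype DSS replicate 1 and both mutant DSS replicates. The fibroblast markers summed to 1608 to 2472 CPM in untreated and 2028 to 2285.5 in DSS endothelium-like barcodes. The part of fibroblast transcripts in the higher C3 and Cfb of this class was not tested. C4b was not called there (0.16 ± 0.20, adjusted p = 0.682). The estimates of C1qa (−1.14) and C1qc (−0.69), not called, changed sign under an alternative, to 0.11 and 0.84. Of the 9 members tested 3 were called there, against 4.62% of all genes.

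Smooth muscle- or pericyte-like barcodes had C4b at 175 and 326 CPM in wildtype untreated, 138 and 278 in mutant untreated, 505 and 712.5 in wildtype DSS and 653 and 875 in mutant DSS libraries. C4b rose by 1.51 ± 0.25 (adjusted p = 0.0107), without overlap, and its call was lost without wildtype DSS replicate 2 (0.0979) or mutant DSS replicate 2 (0.0578). C3 there was not called (1.27 ± 0.32, adjusted p = 0.0547), with 54.4 to 196 CPM in untreated and 201 to 363 in DSS libraries, although DESeq2 called it (adjusted p = 0.00505). C1s1 (200.01 to 400.4 CPM in untreated and 401 to 533 in DSS libraries; 0.59 ± 0.20, adjusted p = 0.125) and Serping1 (303 to 534 and 547 to 735 CPM; 0.48 ± 0.20, adjusted p = 0.216) did not overlap between conditions and were not called. All 7 members tested in this class had an unadjusted p under 0.05, against 1765 of all 8820 genes. The C1q chains fell, C1qa by 1.31, C1qb by 1.97 and C1qc by 1.37 on the log2 scale (adjusted p = 0.00942, 0.0107 and 0.00782), from 43.1 to 90.5 CPM over the 3 chains in untreated to 10.7 to 44.9 in DSS libraries. These 3 calls were lost without the highest doublet scores (adjusted p = 0.226, 0.0545 and 0.177), without the barcodes on the authors' list (0.35, 0.223 and 0.304) and without mutant DSS replicate 2 for C1qa (0.0582) or wildtype DSS replicate 2 for C1qb (0.109) and C1qc (0.0671). T cell-like barcodes, where C1q is background, carried 12.1 to 76.3 CPM of C1qa over all libraries. The macrophage markers in smooth muscle- or pericyte-like barcodes summed to 177 to 256 CPM in untreated and 257 to 545 in DSS libraries. Thinned to 1000 UMIs, the shares of these barcodes with a C1q transcript overlapped between conditions. They were 2.00% to 6.25% in untreated and 0.926% to 6.45% in DSS libraries for C1qa. For C1qb they were 2.00% to 5.35% and 0% to 2.30%, and for C1qc 2.00% to 4.81% and 1.94% to 2.78%. The part of macrophage or fibroblast transcripts in the values of this class was not tested. In all, 4 of 7 members tested were called, against 3.66% of all genes.

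Dendritic cell-like barcodes had 2 of 5 tested members called lower, C1qa (−1.05 ± 0.15, adjusted p = 0.000793) and C1qb (−1.25 ± 0.22, adjusted p = 0.00285), against 14.5% of all genes. Their means over all libraries were 66.0 and 68.3 CPM, far below those of macrophage-like barcodes. Only 33.5% of dendritic cell-like barcodes held no UMI of a macrophage marker, and the part of macrophage transcripts in these values was not tested. In lymphoid classes, where the complement members are at background, the few calls were upward. B cell-like barcodes had C1qa (1.28 ± 0.33, adjusted p = 0.00849) and C1qc (1.70 ± 0.29, adjusted p = 0.000201) called of 3 tested, against 16.1% of all genes. T cell-like barcodes had C3 called of 8 tested (1.29 ± 0.40, adjusted p = 0.0488), at 1.81 to 4.28 CPM in untreated and 4.44 to 13.9 in DSS libraries, against 23.2% of all genes. Plasma cell-like barcodes had C1qc called of 5 tested (1.39 ± 0.38, adjusted p = 0.0416), against 10.5% of all genes. The call of C1qa in B cell-like barcodes was lost under DESeq2 (adjusted p = 0.324) and without wildtype untreated replicate 2 (0.107), mutant untreated replicate 2 (0.0538), wildtype DSS replicate 2 (0.575) or mutant DSS replicate 1 (0.0884). That of C3 in T cell-like barcodes was lost under 7 of 15 alternatives, with adjusted p from 0.0629 to 0.179 without any 1 of the 4 untreated libraries, wildtype DSS replicate 2 or mutant DSS replicate 1. That of C1qc in plasma cell-like barcodes was lost under 8 of 14, with adjusted p from 0.0665 to 0.266 without any 1 of wildtype untreated replicates 1 and 2, mutant untreated replicate 2, wildtype DSS replicate 2 and both mutant DSS replicates. In innate lymphoid- or NK-like barcodes, where 2.25% of all genes were called, edgeR called 0 of 3 members, with 0 at an unadjusted p under 0.05 and 0 by DESeq2. The macrophage markers summed to 24.3 to 59.7 CPM in untreated and 54.2 to 189 in DSS T cell-like barcodes, to 22.2 to 62.2 and 74.2 to 271 in B cell-like barcodes, and to 11.8 to 28.8 and 49.8 to 71.5 in plasma cell-like barcodes. Their part in these values was not tested.

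Glia-like barcodes, the supporting cells of the enteric nervous system, were not tested, because they fell below the floor of 50 barcodes in a library set here, with 11 to 75 barcodes per library. C3 was at 87.0 and 118 CPM in wildtype untreated, 127 and 117 in mutant untreated, 723 and 1046 in wildtype DSS and 820.4 and 1106.5 in mutant DSS libraries, from 369 UMIs in all. Every DSS library was above every untreated library; this gene and class were picked out after the values had been seen. C4b was at 1190.5 to 1660.4 CPM in untreated and 1335 to 1695.5 in DSS libraries, which overlapped, and Cfb had 5 UMIs in all, 0 of them in untreated libraries. The fibroblast markers summed to 2226 to 3558 CPM in untreated and 1707 to 3407 in DSS glia-like barcodes, and their part in these values was not tested.

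**Figure D5:**
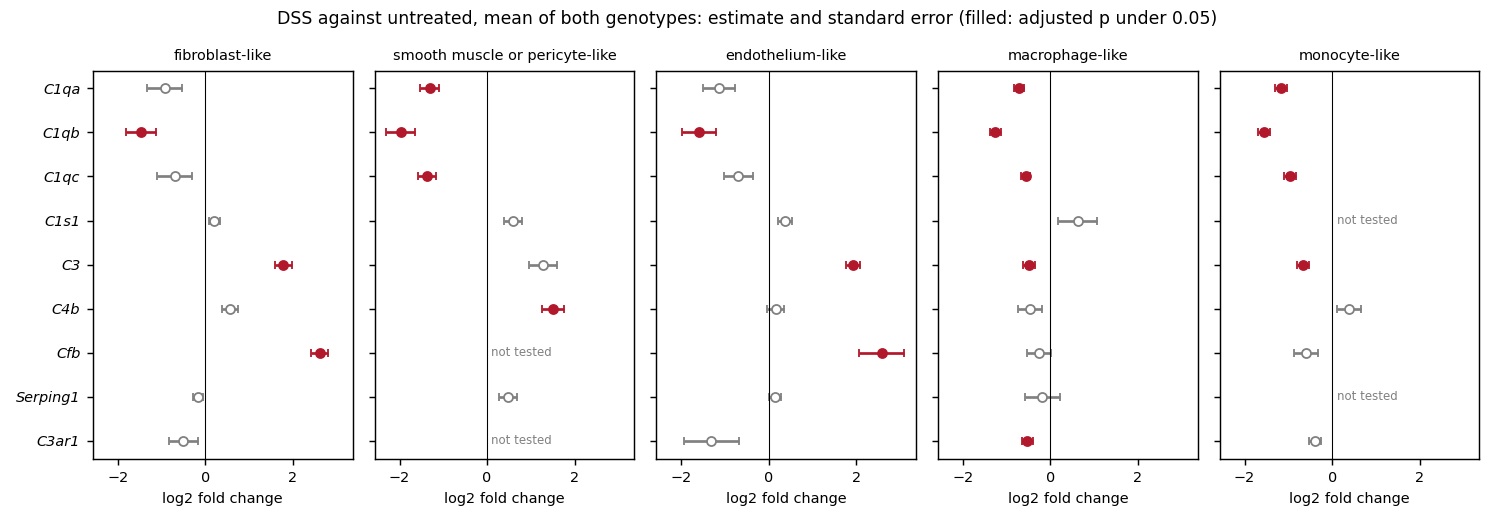
Log2 fold change of the 9 genes after DSS, averaged over both genotypes, with bars of 1 standard error, in 5 classes of barcodes; filled red points have an adjusted p under 0.05, and genes that did not pass the filter are marked as not tested. C3 and Cfb lie to the right of 0 in fibroblast-like and endothelium-like barcodes, and the C1q chains lie to the left in all 5 panels.

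The mutation was compared with wildtype in untreated and in DSS mice, the comparisons that the series' design names, and its effect on the DSS response was tested as an interaction. In fibroblast-like barcodes edgeR called 0 of 9 members in each of the 3 comparisons, with 0 at an unadjusted p under 0.05 and 0 by DESeq2, and 0% of all genes. The log2 differences between mutant and wildtype ranged from −0.92 for C3ar1 to 0.26 for C3 in untreated mice and from −0.54 for Cfb to 0.63 for C1qa after DSS. The DSS effect on C3 differed between genotypes by −0.45 ± 0.38 and that on Cfb by −0.79 ± 0.39 (mutant minus wildtype, adjusted p = 0.977 for both). In macrophage-like barcodes the same 3 comparisons also gave 0 of 9 by edgeR, 0 at an unadjusted p under 0.05, 0 by DESeq2 and 0% of all genes. There the differences ranged from −0.33 for C4b to 0.21 for Serping1 in untreated mice and from −0.86 for Cfb to 0.30 for C1s1 after DSS, and the DSS effect on C1qb differed by −0.38 ± 0.25 (adjusted p = 0.992). With 2 libraries a group, differences of the size of these standard errors were not detectable, and the values do not show that the genotypes are alike.

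Of 45 further complement genes with a row in the tables, 27 could be tested in fibroblast-like barcodes; over both genotypes 6 were higher and 4 lower after DSS, against 10.7% and 9.57% of all genes. Clu, the chaperone clusterin that also binds terminal complement, rose by 1.86 ± 0.35 (adjusted p = 0.00956), from 9.64 to 25.0 to 28.9 to 82.6 CPM. Among the higher genes, C1s2 (1.87 ± 0.41) and C6 (1.59 ± 0.38) also rose, at levels below 8 CPM in each library. The 4 lower genes were Cpn1 (−2.59 ± 0.65), Cd59b (−1.37 ± 0.40), Colec10 (−1.23 ± 0.32) and Itgax (−0.99 ± 0.23). Over the 27 genes the median log2 fold change was 0.14. Within 1 genotype 2 of 27 were higher and 0 lower, among them C2 in wildtype and C1s2 in mutant mice, against 3.22% and 7.82% of all genes called. The call of C2 in wildtype mice was lost under 7 of 17 alternatives, with adjusted p from 0.0766 to 0.329 without any 1 of the 4 untreated libraries or wildtype DSS replicate 2. That of C1s2 in mutant mice was lost without mutant untreated replicate 1 (0.211) or 2 (0.18) or mutant DSS replicate 2 (0.122). Over both genotypes, leaving out wildtype DSS replicate 2 brought the adjusted p to 0.0551 for Clu, 0.0991 for C1s2 and 0.194 for C6. The call of C1s2 was also lost without mutant untreated replicate 1 (0.0759) or 2 (0.0711), and that of C6 without any 1 of the 4 untreated libraries (0.0596 to 0.0924) or mutant DSS replicate 2 (0.0686). Each of the 4 lower genes lost its call without any 1 of wildtype untreated replicates 1 and 2 and mutant untreated replicate 1.

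In macrophage-like barcodes 18 of the 45 were tested; 0 were higher and 3 lower over both genotypes: C1rl (−1.60 ± 0.28, adjusted p = 0.00313), Itgb2 (−0.47 ± 0.11, adjusted p = 0.011), the shared chain of the complement receptors CR3 and CR4, and Cr1l (−0.46 ± 0.14, adjusted p = 0.0303), a membrane regulator. Over all genes 12.9% were called lower there, close to the share of this list. The call of Itgb2 was lost without wildtype untreated replicate 2 (0.0605) or wildtype DSS replicate 2 (0.0522). That of Cr1l was lost under 9 of 16 alternatives, among them DESeq2 (0.0634), with adjusted p from 0.0686 to 0.141 without any 1 of wildtype untreated replicate 2, both mutant untreated replicates, both wildtype DSS replicates and mutant DSS replicate 2. The same 3 genes were called lower in mutant mice, against 14.5% of all genes called, but C1rl in 8, Itgb2 in 6 and Cr1l in 4 of 17 alternatives. Their adjusted p rose to 0.363, 0.143 and 0.155 without mutant untreated replicate 1 and to 0.151, 0.207 and 0.251 without mutant DSS replicate 2. In wildtype mice 0 of 18 were called by edgeR and 0 by DESeq2. Of these 18, 3 had an unadjusted edgeR p under 0.05, against 19.4% of all genes. In monocyte-like barcodes 2 of 10 were higher and 1 lower, against 17.4% of all genes called. Itgam, the partner of Itgb2 in CR3, rose by 1.04 ± 0.15 (adjusted p = 0.000638) under each of 14 alternatives, while Itgb2 itself fell by 0.46 (SE 0.15, adjusted p = 0.0434) and C5ar2 rose by 1.01 ± 0.31 (adjusted p = 0.0393). The last 2 were called under 5 of 14 and 6 of 13 alternatives, with adjusted p of up to 0.22 without mutant untreated replicate 1 and 0.159 without wildtype DSS replicate 2.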

How the data were processed

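Droplet 3' single-cell libraries were made from digested colonic lamina propria, per the labels' protocols. The authors' deposited tables hold UMI counts per gene and barcode for 8 libraries; Cell Ranger 3.1.0, Seurat 4.0.1 and mm10 are named in the submitters' processing notes without a role. Because 3' UMI counts do not grow with transcript length, levels were compared as CPM. How the deposited barcodes were filtered is not given in the sources used here.

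Barcodes with at least 400 genes and under 20% mitochondrial UMIs were kept, 96721 of 100673. The tables' rows were named through the deposited identifier table, and 98.49% of its identifiers carried the listed symbol. Clustering used scanpy 1.11.5 on 1782 variable genes without complement genes (30 components, 15 neighbours, resolution 1), which gave 25 clusters. Clusters were named from marker lists, by the highest mean log2 ratio with at least 3 markers detected; details of that rule were set after the clusters were seen, and lists of globin genes and of fibroblast subsets named no class. Doublets were scored with scrublet and kept; its automatic threshold called barcodes in 1 of 8 libraries, so that an alternative without the 8% highest scores was used in its place.

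UMI counts were summed per class and library and tested with edgeR 4.0.16 (quasi-likelihood test, TMM, low-count filter, all 8 libraries in 1 fit, Benjamini-Hochberg over all genes tested, threshold 0.05). Classes with fewer than 50 barcodes in a library were not tested; this floor was not applied to the fits within fibroblast-like clusters, which were added later. DESeq2 1.42.0, no filter, other clusterings and cell sets, and leaving out each library were alternatives; the code was tested on simulated data. All 9 members are named; of the wider list, called genes are named, at most 4 per direction by fold size, and the 3 genes most like each member by Pearson r. The members and lists were chosen with earlier results of these data known. The values of 1 gene of the wider list are not reported here, although counts over the list include it.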

Additional observations from a re-analysis of the deposited data

How the results depend on the processing

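No member called in fibroblast-like or macrophage-like barcodes changed direction. Members that were not called did, such as C1qa, C1qc and C3ar1 in fibroblast-like barcodes. Changes of direction of members called in the other classes were not counted. Of 215 recomputed counts of called members, 190 stayed within 1.5 times the reported count. These 190 include comparisons with 0 calls both reported and recomputed, which do not show how firmly calls held. Of 264 recomputed fold changes of members called in fibroblast-like or macrophage-like barcodes, 234 kept their call and 30 lost it. Further calls were lost in the other classes and are not among these 264. In fibroblast-like barcodes without the filter on low counts, 7 members were called over both genotypes against 3 reported and 7 in wildtype mice against 2. The same setting gave 1 call in mutant against wildtype untreated mice and 1 in the difference of the DSS effects, against 0 reported for each, and 28 calls in the other classes against 17. The shares of all genes called under the alternative settings are not given here, so the recomputed counts have no background beside them. With only the 4 libraries compared, 1 member was called in mutant fibroblast-like barcodes against 2. In wildtype macrophage-like barcodes, with 1 call reported, DESeq2 gave 2, no filter 4 and only the 4 libraries compared 2, while leaving out the highest doublet scores (chosen after seeing the data) or the barcodes on the authors' list gave 0. Leaving out 1 library at a time gave 1 to 3 calls in wildtype and 0 to 2 in mutant fibroblast-like barcodes, 2 to 4 in fibroblast-like barcodes over both genotypes, 0 to 2 in wildtype and 1 to 3 in mutant macrophage-like barcodes, 3 to 5 in macrophage-like barcodes over both genotypes and 13 to 21 in the other classes. The cause was not tested. Of 90 recomputed levels 8 moved beyond 1 SD, all of C1qa, C1qb, C1qc and C3ar1 in fibroblast-like barcodes without the highest doublet scores (48.0, 34.7, 25.4 and 4.57 CPM) or without barcodes holding macrophage markers (12.9, 10.5, 8.67 and 0.654 CPM). In the coarser clustering monocyte-like barcodes joined the macrophage-like class, so that their values could not be recomputed there. The planned setting without called doublets was not run. No paired analysis was run, because the libraries' labels state no pairs and share no replicate numbers across groups. The titles of wildtype and mutant libraries do hold neighbouring numbers, and whether these mark pairs is not given in the sources used here. The genotype comparisons treated the libraries as unpaired, so any difference shared by such pairs entered their error. Classes of few barcodes and genes of few UMIs limit what could be detected.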

Other observations

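Cfd, which encodes factor D, the protease that activates factor B and is abundant in fat cells, stood at 120.9 CPM in fibroblast-like barcodes of mutant DSS replicate 2 and at most at 0.170 CPM in the other 7 libraries. This gene was picked out after its values had been seen.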
